A study of Paeonia lactiflora with 9 samples.

Results

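The 65 unigenes described here carried the definition of a sphingolipid enzyme or of a galactosidase in the study's list of 503 differentially expressed unigenes of lipid metabolism in seeds of herbaceous peony ‘Hangshao’ (Paeonia lactiflora), out of 125685 unigenes with deposited values. They were found by their definitions (sphing, ceram, galactosidase, serine palmitoyltransferase or dehydrosphinganine, without sterol), and none of them was on the study's separate list of fatty acid and oil genes. The 9 libraries were made from whole seeds at 30, 60 and 90 days after flowering (DAF), with 3 libraries a stage, all of a single cultivar without any treatment. Group I compares 60 DAF with 30 DAF, Group II 90 DAF with 60 DAF and Group III 90 DAF with 30 DAF, so that each pair of groups shares libraries. The labels call the libraries biological replicates, while the study's methods name a single plant as the source of the seeds, so the SDs and standard errors (SE) below need not cover the spread between plants. A unigene entered the list because the study had called it differentially expressed, by fold change and adjusted p, in at least 1 of the same 3 groups. The stage changes below are therefore a description of chosen unigenes, without a test.

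Sphingolipids are membrane lipids built on a long-chain base. The base is made from serine and a fatty acyl-CoA, reduced, hydroxylated and joined by an amide bond to a fatty acid, which gives ceramide. A sugar or sugar phosphate head group is then added to ceramide, and in plants the products are common in the plasma membrane. Ceramidases release the base again, and a lyase (aldolase) ends the breakdown of its phosphate. Galactosidases cut terminal galactose from sugar chains. They stand in the sphingolipid pathway because the lysosomal enzymes of animals act on glycolipids, whereas in seeds alpha-galactosidases are known for the breakdown of raffinose-type sugars and galactomannan, and plant beta-galactosidases for the trimming of cell wall galactans.

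The 65 unigenes belonged to 10 enzymes. Beta-galactosidase alone held 36 of them and alpha-galactosidase 6. The other 23 were 2 unigenes of 3-dehydrosphinganine reductase, 5 of sphinganine C4-monooxygenase, 3 of ceramide synthetase, 1 of dihydroceramidase, 2 of neutral ceramidase, 3 of sphinganine-1-phosphate aldolase, 4 of ceramide galactosyltransferase and 3 of non-lysosomal glucosylceramidase. Serine palmitoyltransferase, the enzyme of the first step, had 0 unigenes in the list. In all, 25 clusters held 45 of the members as contigs, and the other 20 were single unigenes. Contigs of a cluster (the same CL number) are similar transcripts between which the authors' RSEM estimate could divide reads, so their single values are less certain than their sum. The mean over the 9 libraries ran between 0.139 and 149 FPKM (fragments per kilobase of unigene, corrected for how many fragments each library had mapped), with a median of 3.90. It was under 1 FPKM for 14 members and at least 10 FPKM for 19.

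The deposited FPKM had already been scaled to each library's mapped fragments. From the size of the lowest values, depth relative to replicate 1 at 30 DAF was 0.956 to 1.0 at 30 DAF, 1.03 to 1.04 in 60 DAF seeds and 0.884 to 0.934 in 90 DAF seeds. The 6 oleosin and 4 caleosin unigenes, which stand on the list of 503 as well as on that of oil genes and whose proteins coat the oil bodies of seeds, were present in every library, with 1193 to 1313 FPKM in sum in 30 DAF seeds, 5577 to 9399 at 60 DAF and 9494 to 14355 in 90 DAF seeds. The part of this shift in the values below was not tested. In whole seeds, fewer cells of a type and less RNA per cell cannot be told apart.

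Across the 65 unigenes, the mean was highest at 30 DAF for 38, in 60 DAF seeds for 15 and in 90 DAF seeds for 12. It fell at both steps for 36 and rose at both for 8. Under median-of-ratios scaling the numbers by stage were 33, 21 and 11, and under quantile normalization 34, 19 and 12. Their FPKM summed to 931, 1000 and 945 in the 30 DAF libraries, 1176, 1056 and 975 in the 60 DAF libraries, and 412, 429 and 443 in the 90 DAF libraries. The 90 DAF libraries lay below all others, and those at 30 and 60 DAF overlapped, though not under either of the other scalings. The members that carried this sum changed with the stage. CL8334.Contig1, a beta-galactosidase, held 19.4% of it at 30 DAF and 24.4% at 60 DAF. At 90 DAF, Unigene16750, a sphinganine C4-monooxygenase, held 28.2% and CL6711.Contig1, another beta-galactosidase, 26.0%, together 54.1%.

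**Figure D1:**
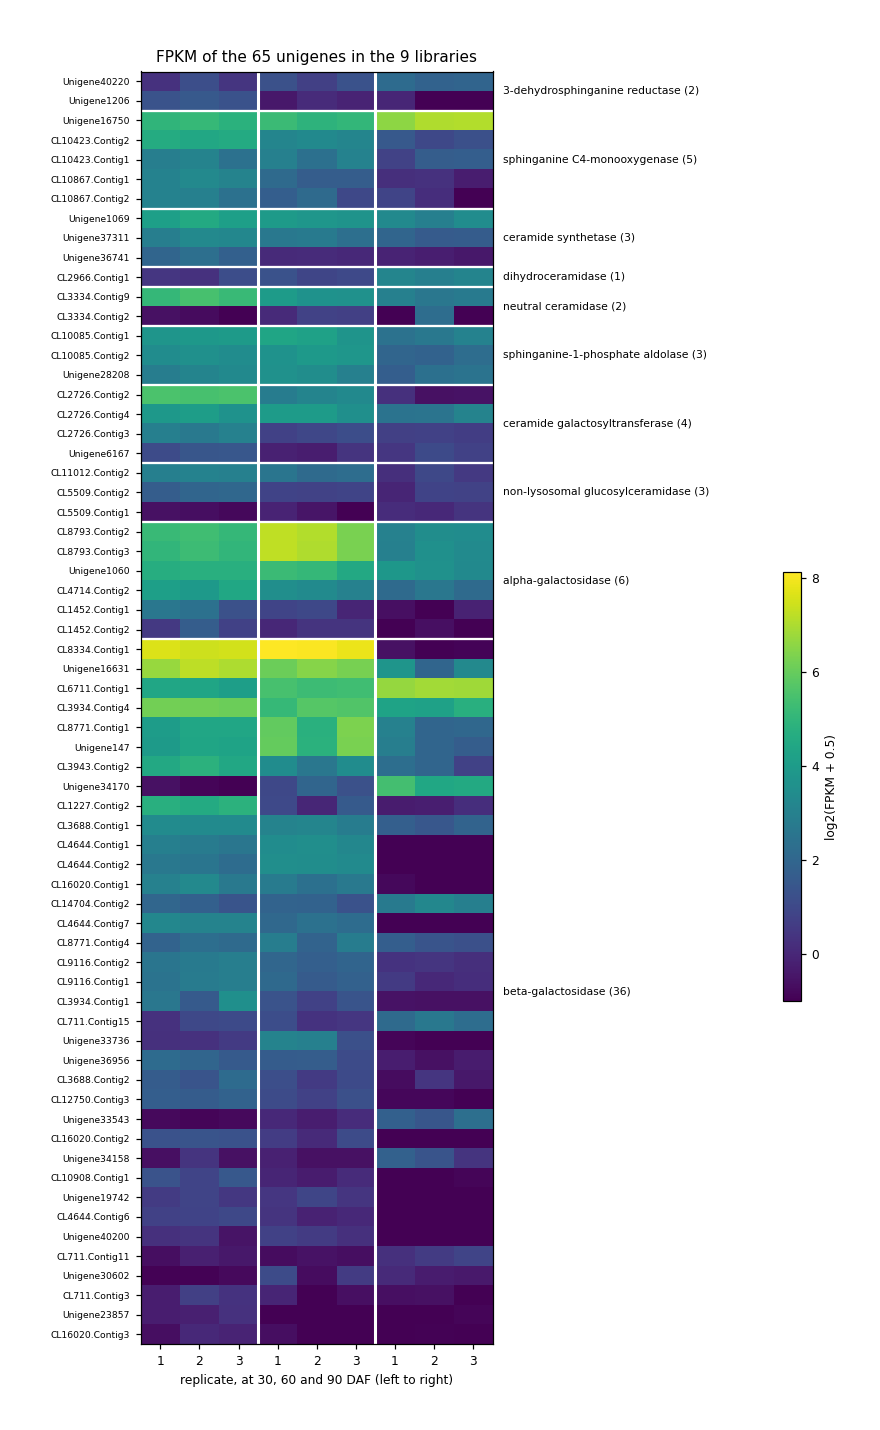
Each row is a unigene, grouped by enzyme and ordered by mean within it, each column a library, and the colour is log2(FPKM + 0.5). Most rows darken toward 90 DAF, while Unigene16750 (94.7 to 136 FPKM at 90 DAF), CL6711.Contig1 (104 to 116) and Unigene34170 (21.3 to 42.2) brighten.

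With limma on log2(FPKM + 0.5), 62 of the 65 passed the filter of 0.5 FPKM in at least 3 libraries. A unigene was called where the change was at least 1 on that scale with an adjusted p of at most 0.05 over all 55192 tested unigenes. In Group I, 5 members were called higher and 12 lower at 60 DAF, against 1.72% and 6.33% of all tested unigenes. In Group II, 9 were called higher and 37 lower at 90 DAF, where the shares of all tested unigenes were 18.2% and 9.41%. In Group III the numbers were 9 higher and 46 lower, beside 13.7% and 16.5%. Because the list was chosen on the same groups, these counts describe its make-up only. The splits depended on the scaling. In Group I there were 9 members higher and 8 lower under median-of-ratios scaling, beside 2.78% and 3.55% of all tested unigenes, and 9 higher and 6 lower under quantile normalization, beside 2.97% and 3.58%. In Group II the share of all unigenes called changed order, as 7.50% were higher and 14.1% lower at 90 DAF under median-of-ratios scaling, with 6 members higher and 44 lower. Quantile normalization gave 11.5% and 11.7% of all unigenes there, with 8 members higher and 41 lower. For Groups I, II and III the median change of the tested members was -0.36, -1.17 and -1.87, where the median over all tested unigenes was -0.31, 0.36 and 0.06. For all tested unigenes, median-of-ratios scaling moved it to -0.03, -0.04 and -0.07 and quantile normalization to -0.01, 0.14 and 0.14. Changes and overlaps are given below on the deposited scale, and for Unigene16750 and CL6711.Contig1 also relative to the median unigene. On that scale the libraries at 60 and 30 DAF did not overlap for 44 of the 62 tested members, where this was so for 35.7% of all tested unigenes. Under median-of-ratios scaling there were 39 such members, beside 28.4%, and under quantile normalization 41, beside 29.5%. Each of these scalings gave 21 of the 62 a different answer, so that an overlap in Group I is a property of the deposited scale. For 90 DAF against 60 DAF, 57 of the tested members did not overlap on the deposited scale, beside 47.4% of all tested unigenes, and for 90 DAF against 30 DAF it was 60, beside 48.1%. The other scalings left these at 57 and 58 in Group II and at 60 and 61 in Group III. The list was chosen on these groups, so that nothing is read from the differences.

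The 3 untested members, all beta-galactosidases, had low values throughout. CL16020.Contig3 reached at most 0.53 FPKM, CL711.Contig3 1.14 and Unigene23857 0.73, each at 30 DAF. Near the limit of a call, CL5509.Contig1 (glucosylceramidase) was outside with a largest change of 0.88 ± 0.25 (SE) in Group III. Unigene1069 (ceramide synthetase) was just inside with -1.05 ± 0.19 in the same group. Of the tested members, 59 were called in at least 1 group, as were 39.4% of all tested unigenes, and 3 in none, which were CL5509.Contig1, Unigene30602 and CL3334.Contig2.

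Among the enzymes of base synthesis, the pair of 3-dehydrosphinganine reductase unigenes went in opposite directions. This enzyme makes sphinganine from the keto base formed in the first step. Unigene40220 had 0.72, 1.77 and 0.82 FPKM in 30 DAF seeds, 1.91, 1.16 and 1.97 at 60 DAF, and 4.05, 3.19 and 3.36 in 90 DAF seeds. The 90 DAF libraries lay above all others, while those at 30 and 60 DAF overlapped. Unigene1206 had 2.02, 2.43 and 1.94 FPKM at 30 DAF, but only 0.25, 0.59 and 0.44 in 60 DAF seeds and 0.49, 0 and 0 in 90 DAF seeds. Its 30 DAF libraries stood above the rest. In Group III the fitted change was 1.38 ± 0.30 for Unigene40220 and -2.06 ± 0.32 for Unigene1206 (SE). Unigene40220 therefore held most of the enzyme's FPKM at 90 DAF, while the sum of both, 3.70 ± 0.735 at 90 DAF and 3.23 ± 0.837 at 30 DAF (SD, n = 3), overlapped between these stages.

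Sphinganine C4-monooxygenase adds the hydroxyl group that turns sphinganine into phytosphingosine, the common base of plant sphingolipids. A single unigene of this enzyme rose and the other 4 fell. Unigene16750 had 30.8, 34.4 and 28.2 FPKM in 30 DAF seeds, 37.0, 29.3 and 32.3 at 60 DAF, and 94.7, 131 and 136 in 90 DAF seeds. The libraries of the earlier stages overlapped, though not under the other scalings, and each 90 DAF library lay far above them. Its mean was 3.66-fold higher at 90 DAF than at 60 DAF, a fitted change of 1.85 ± 0.17, or 1.49 relative to the median unigene.

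The 4 other C4-monooxygenase unigenes were contigs of 2 clusters. CL10423.Contig2 had 23.8, 22.1 and 23.3 FPKM at 30 DAF, 8.39, 9.53 and 8.39 in 60 DAF seeds, and 2.45, 1.47 and 1.85 in 90 DAF seeds. The stages did not overlap at either step, and the mean was 12.0-fold lower at 90 DAF than at 30 DAF. Its partner CL10423.Contig1 had 4.84 to 8.09 FPKM in 30 DAF seeds and 4.66 to 7.83 at 60 DAF, which overlapped, and 1.25 to 2.78 in 90 DAF seeds. The make-up of the cluster shifted accordingly. Contig1 made up 52.9% ± 16.8 of the cluster's FPKM at 90 DAF and 22.3% ± 4.83 at 30 DAF (SD, n = 3). CL10867.Contig1 fell to 0.573 ± 0.223 FPKM at 90 DAF, against 8.38 ± 0.877 at 30 DAF, and CL10867.Contig2 to 0.653 ± 0.660, against 6.72 ± 1.64. The Group II call of CL10867.Contig2 (-1.60) was lost without replicate 1 or 2 at 60 DAF or without replicate 2 or 3 at 90 DAF, at -1.69 to -1.09. Unigene16750 was the highest of the 5 at every stage. The sum of the enzyme was 75.9 ± 6.18 FPKM in 30 DAF seeds, 54.1 ± 4.81 at 60 DAF and 126 ± 22.2 in 90 DAF seeds. It rose with Unigene16750 in Group II. In Group I the sum fell, though its libraries overlapped under the other scalings, while Unigene16750 had close means of 31.1 and 32.9 FPKM. For the sum, the 90 DAF libraries lay above the others except, under median-of-ratios scaling, for an overlap with 30 DAF. Unigene16750 accounted for 120 of the 126 FPKM at 90 DAF.

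Ceramide synthetase joins the base to a fatty acid. Its 3 unigenes had their highest values at 30 DAF and fell in Group III. Unigene1069, the highest, had 17.5, 23.1 and 17.2 FPKM at 30 DAF, 15.4, 13.3 and 12.5 in 60 DAF seeds, and 9.64, 7.10 and 10.4 in 90 DAF seeds. It declined by small steps, and its Group III call was lost without replicate 2 at 30 DAF (-0.92) or without replicate 2 at 90 DAF (-0.90). Unigene37311 had a mean 2.89-fold lower at 90 DAF than at 30 DAF. Unigene36741 fell early, with 0.570 ± 0.030 FPKM at 60 DAF and 3.65 ± 0.756 at 30 DAF, and had 0.347 ± 0.0950 at 90 DAF. The enzyme's sum was 31.3 ± 4.88 FPKM in 30 DAF seeds, 19.8 ± 2.17 at 60 DAF and 12.3 ± 1.95 in 90 DAF seeds.

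**Figure D2:**
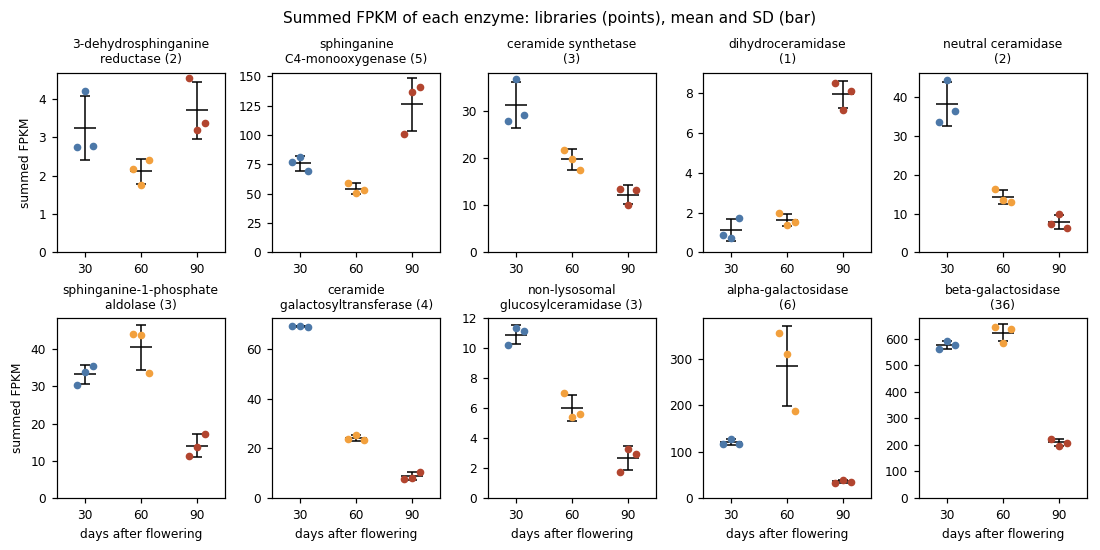
Each panel plots the summed FPKM of an enzyme (number of unigenes in parentheses) in the 3 libraries of each stage as points, with the mean and SD as bars. The sums of C4-monooxygenase and dihydroceramidase were highest at 90 DAF (126 and 7.92 FPKM), those of alpha-galactosidase and the aldolase were highest at 60 DAF (285 and 40.5 FPKM), and that of ceramide galactosyltransferase was highest in 30 DAF seeds (69.1 FPKM).

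The enzymes of base release and breakdown followed 3 courses. Dihydroceramidase splits dihydroceramide into sphinganine and a fatty acid, and neutral ceramidase does so with ceramide. The dihydroceramidase unigene CL2966.Contig1 had 0.86, 0.74 and 1.74 FPKM at 30 DAF, 1.98, 1.38 and 1.51 in 60 DAF seeds, and 8.50, 7.15 and 8.11 in 90 DAF seeds. The libraries at 90 DAF lay above all others, 4.88-fold higher on average than at 60 DAF, and those of the earlier stages overlapped on the deposited scale. The neutral ceramidase CL3334.Contig9 went the other way, with 33.4, 44.3 and 36.5 FPKM in 30 DAF seeds, 15.7, 12.3 and 11.8 at 60 DAF, and 7.42, 5.68 and 6.28 in 90 DAF seeds. No stage overlapped another, and its mean was 5.89-fold lower at 90 DAF than at 30 DAF, a change of -2.47 ± 0.18. The other neutral ceramidase, CL3334.Contig2, had 0 to 0.17 FPKM in 30 DAF seeds and 0.56 to 1.25 at 60 DAF, and rested on a single library in 90 DAF seeds, with 0, 4.25 and 0.

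Sphinganine-1-phosphate aldolase splits the phosphorylated base into a long-chain aldehyde and phosphoethanolamine. Its 3 unigenes shared a course, with close values at the earlier stages and lower ones at 90 DAF. CL10085.Contig1 had 13.1, 14.1 and 15.3 FPKM at 30 DAF, 20.2, 18.3 and 12.6 in 60 DAF seeds, and 4.93, 5.77 and 7.83 in 90 DAF seeds. In Group II the fitted changes were -1.39 ± 0.22 for CL10085.Contig1, -1.76 ± 0.16 for CL10085.Contig2 and -1.16 ± 0.26 for Unigene28208. All 3 had their highest mean at 60 DAF, but for CL10085.Contig1 and Unigene28208 the libraries at 60 and 30 DAF overlapped on the deposited scale. For CL10085.Contig2 they did not, at 12.1 to 15.0 FPKM at 60 DAF and 10.5 to 11.6 at 30 DAF. The call of Unigene28208 in Group II was lost without replicate 1 at 90 DAF (-0.93).

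Ceramide galactosyltransferase, a name taken from the animal enzyme that makes the galactosylceramide of myelin, had the steepest decline of the sphingolipid enzymes by its sum. The sum was 69.2, 69.3 and 68.7 FPKM in 30 DAF seeds, 24.0, 25.5 and 23.3 at 60 DAF, and 7.77, 8.06 and 10.6 in 90 DAF seeds. The stages were far apart beside their spread, with the mean 2.85-fold lower at 60 DAF than at 30 DAF and 2.76-fold lower at 90 DAF than at 60 DAF. CL2726.Contig2 made most of this change. It had 46.1, 44.4 and 46.8 FPKM at 30 DAF, 6.71, 8.10 and 9.62 in 60 DAF seeds, and 0.70, 0.16 and 0.18 in 90 DAF seeds, a change of -5.83 ± 0.25 in Group III. CL2726.Contig4 of the same cluster kept close values at first, with 12.2 to 16.6 FPKM in 30 DAF seeds and 11.1 to 15.7 at 60 DAF, and had 5.04 to 8.06 in 90 DAF seeds. Within the cluster, Contig4 made up 21.3% ± 3.21 of the FPKM at 30 DAF, 58.7% ± 8.55 in 60 DAF seeds and 76.8% ± 8.91 in 90 DAF seeds. Contig2 made up 67.9% ± 2.24, 34.2% ± 7.64 and 4.57% ± 4.20 in the same order. CL2726.Contig3 fell in Group I (-1.92 ± 0.19) and afterwards had 1.21 to 1.72 FPKM at 60 DAF and 1.09 to 1.19 FPKM at 90 DAF. Unigene6167, the lowest of the 4, had 2.04 ± 0.370 FPKM in 30 DAF seeds, 0.510 ± 0.254 at 60 DAF and 1.21 ± 0.355 in 90 DAF seeds, and under the other scalings the libraries at 90 and 60 DAF overlapped. Its Group I call (-1.35) was lost without replicate 2 or 3 at 30 DAF or replicate 1 or 2 at 60 DAF, at -1.285 to -1.219.

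Non-lysosomal glucosylceramidase removes glucose from glucosylceramide. CL11012.Contig2 had 7.28, 7.76 and 7.44 FPKM in 30 DAF seeds, 5.29, 3.94 and 4.30 at 60 DAF, and 0.67, 1.45 and 0.92 in 90 DAF seeds. Its stages did not overlap, and it fell mainly in Group II, by 1.75 on the log2 scale. With the unlisted CL11012.Contig1, its cluster summed to 15.1 ± 1.71, 9.61 ± 0.956 and 5.18 ± 0.604 FPKM in stage order. The listed contig made up 49.9% of this at 30 DAF and 19.6% at 90 DAF, so the cluster fell less than the contig. CL5509.Contig2 had 2.75 to 3.63 FPKM at 30 DAF, 1.24 to 1.34 in 60 DAF seeds and 0.47 to 1.30 in 90 DAF seeds, and was called lower in Group I, but this call (-1.08) was lost when any library at 30 or 60 DAF was left out, at -1.18 to -1.01. CL5509.Contig1 was low, with 0.07 to 0.16 FPKM in 30 DAF seeds, 0 to 0.43 at 60 DAF and 0.55 to 0.80 in 90 DAF seeds. With the unlisted CL5509.Contig3, this cluster summed to 3.87 ± 0.145, 1.97 ± 0.303 and 2.79 ± 0.265 FPKM in stage order. The sum of the enzyme was 10.9 ± 0.626 FPKM in 30 DAF seeds, 6.01 ± 0.861 at 60 DAF and 2.67 ± 0.816 in 90 DAF seeds.

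Alpha-galactosidase had a peak at 60 DAF that rested on a pair of contigs. CL8793.Contig2 had 36.2, 40.2 and 33.3 FPKM at 30 DAF, 154, 134 and 78.8 in 60 DAF seeds, and 7.66, 10.7 and 10.4 in 90 DAF seeds. No stage overlapped another, and replicate 3 was the lowest of the 60 DAF libraries. The mean was 3.34-fold higher at 60 DAF than at 30 DAF and 12.8-fold lower at 90 DAF than at 60 DAF. CL8793.Contig3 differed from Contig2 by at most 13.2% in any library, so that the 2 contigs could be near-copies which share reads. Their fitted changes were 1.68 ± 0.25 and 1.77 ± 0.26 in Group I and -3.57 ± 0.25 and -3.55 ± 0.26 in Group II. Unigene1060 had 25.6 to 26.9 FPKM in 30 DAF seeds and 22.3 to 37.2 at 60 DAF, which overlapped, and 9.69 to 13.8 in 90 DAF seeds. The other 3 alpha-galactosidases were highest at 30 DAF and fell at both steps. CL4714.Contig2 had a mean of 17.7 ± 3.26 FPKM at 30 DAF, 9.40 ± 1.64 in 60 DAF seeds and 4.50 ± 0.973 in 90 DAF seeds. CL1452.Contig1 had 4.17 ± 1.99, 1.08 ± 0.545 and 0.190 ± 0.213 at the same stages, and CL1452.Contig2 was lower still. The sum of the 6 was 120 ± 6.05 FPKM in 30 DAF seeds, 285 ± 86.2 at 60 DAF and 35.6 ± 3.58 in 90 DAF seeds, and all 6 were called lower in Group III, beside the 16.5% of all tested unigenes.

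The 36 beta-galactosidases summed to 562, 590 and 574 FPKM at 30 DAF, 644, 585 and 637 in 60 DAF seeds, and 224, 197 and 207 in 90 DAF seeds. The earlier stages overlapped, though not under the other scalings, and the 90 DAF libraries lay below them. By their means, 20 were highest in 30 DAF seeds, 9 at 60 DAF and 7 in 90 DAF seeds. Of the 33 tested, 23 were called lower and 7 higher at 90 DAF than at 60 DAF, beside 9.41% and 18.2% of all tested unigenes on the deposited scale. Under median-of-ratios scaling these shares were 14.1% and 7.50%, and the beta-galactosidases were not counted apart on that scale.

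The member of highest level was lost almost entirely at 90 DAF. CL8334.Contig1 had 200, 175 and 184 FPKM at 30 DAF, 281, 270 and 232 in 60 DAF seeds, and 0.17, 0 and 0.03 in 90 DAF seeds. The libraries of the earlier stages were the highest of any member at those stages. As a library at 90 DAF was at 0, no fold is given, and the fitted Group II change of -8.86 ± 0.15 depends on the 0.5 that was added. The 4 contigs of CL4644 in the list were listed at 0 FPKM in all 3 libraries at 90 DAF. CL4644.Contig1 had 8.85 to 10.9 FPKM at 60 DAF, against 5.55 to 7.15 at 30 DAF, and CL4644.Contig2 had 9.94 to 10.98 at 60 DAF, against 4.21 to 5.85 at 30 DAF, within 24.1% of it in every library. CL4644.Contig7 instead was highest at 30 DAF, with 4.26 ± 0.527 FPKM at 60 DAF and 8.21 ± 0.483 at 30 DAF, and CL4644.Contig6 was highest at 30 DAF too. The Group II call of CL4644.Contig6 (-1.10) was lost without replicate 1 at 60 DAF (-0.95). Within that cluster Contig7 made up 16.8% ± 2.02 at 60 DAF and 39.0% ± 1.97 at 30 DAF, while Contig2 made up 41.4% ± 1.51 at 60 DAF and 24.2% ± 2.07 at 30 DAF. CL16020.Contig2, Unigene19742 and Unigene40200 were also at 0 in each library at 90 DAF, which makes 7 such members, and their earlier means were 0.57 to 2.0 FPKM. These zeros are the values as listed, and the reads behind them were not counted here.

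Several abundant beta-galactosidases fell to a lower level without vanishing. Unigene16631 had 107, 150 and 129 FPKM in 30 DAF seeds, 67.2, 88.3 and 75.4 at 60 DAF, and 13.2, 3.46 and 9.29 in 90 DAF seeds. It fell mainly in Group II, with a change of -3.25 ± 0.40, and the libraries at 90 DAF spread widely. CL3934.Contig4 had 72.7, 70.6 and 68.1 FPKM at 30 DAF, 34.6, 53.1 and 49.5 in 60 DAF seeds, and 19.3, 18.2 and 27.0 in 90 DAF seeds. This milder decline left it the third beta-galactosidase at 90 DAF, and its Group II call (-1.07 ± 0.20) was lost without replicate 2 at 60 DAF (-0.95) or replicate 2 at 90 DAF (-0.96). CL3688.Contig1 had 9.73 to 10.2 FPKM in 30 DAF seeds, 6.68 to 8.41 at 60 DAF and 2.27 to 3.21 in 90 DAF seeds. CL1227.Contig2 fell before 60 DAF instead, with 26.6, 23.5 and 28.8 FPKM at 30 DAF, 1.51, 0.48 and 2.47 in 60 DAF seeds, and 0.31, 0.35 and 0.65 in 90 DAF seeds. Its change was -3.89 ± 0.38 in Group I, the largest fall of any tested member in that group.

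CL8771.Contig1 and Unigene147 had a peak at 60 DAF with a wide spread. CL8771.Contig1 had 16.2, 20.6 and 20.5 FPKM in 30 DAF seeds, 60.2, 27.5 and 79.9 at 60 DAF, and 7.63, 3.42 and 3.65 in 90 DAF seeds. Replicate 2 at 60 DAF was much lower than the other libraries of that stage, but still above 30 DAF. Unigene147 had nearly the same values, within 7.47% in 8 of 9 libraries, and 26.0% apart in replicate 3 at 90 DAF, so it may share reads with CL8771.Contig1 although it has no cluster number. This pair was picked out after its values were seen, as it lay just outside the limit of 25%. The changes in Group I were 1.41 ± 0.41 and 1.49 ± 0.42 and were not called, except under the other scalings, and those in Group II were -3.34 ± 0.41 and -3.51 ± 0.42.

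The 7 beta-galactosidases that were highest at 90 DAF covered a wide range of levels. CL6711.Contig1 had 20.5, 20.1 and 17.1 FPKM at 30 DAF, 43.7, 38.3 and 40.3 in 60 DAF seeds, and 104, 116 and 114 in 90 DAF seeds. It rose at both steps without overlap, by 1.07 ± 0.13 in Group I and 1.44 ± 0.13 in Group II (1.37 and 1.08 relative to the median unigene), and was 5.77-fold higher at 90 DAF than at 30 DAF. Without replicate 3 at 30 DAF the Group I change was 0.98, and under median-of-ratios scaling the Group II change was 0.81, both short of a call. Unigene34170 had 0.17, 0.04 and 0 FPKM in 30 DAF seeds, 1.46, 3.43 and 1.90 at 60 DAF, and 42.2, 21.3 and 23.1 in 90 DAF seeds. It was near 0 at 30 DAF and 12.8-fold higher at 90 DAF than at 60 DAF, where the fitted change was 3.41 ± 0.34.

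The other 5 were lower. CL14704.Contig2 had 2.07 to 3.50 FPKM in 30 DAF seeds, 1.97 to 3.30 at 60 DAF and 6.14 to 8.79 in 90 DAF seeds. CL711.Contig15 had 0.73 to 1.55, 0.77 to 1.76 and 3.94 to 5.76 FPKM at these stages. For both, the libraries of the earlier stages overlapped. Unigene33543 had 0.0667 ± 0.0231 FPKM in 30 DAF seeds, 0.493 ± 0.139 at 60 DAF and 3.27 ± 1.23 in 90 DAF seeds, and CL711.Contig11 stayed at 1.31 FPKM or less. Unigene34158 overlapped between 90 DAF (0.79 to 3.11 FPKM) and 30 DAF (0.15 to 0.80), and its Group III call (1.47 ± 0.43) was lost when any of 4 libraries was left out, with 1.15 to 1.39. Its Group II call (1.63 ± 0.43) was lost without replicate 2 or 3 at 60 DAF (1.56 each).

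**Figure D3:**
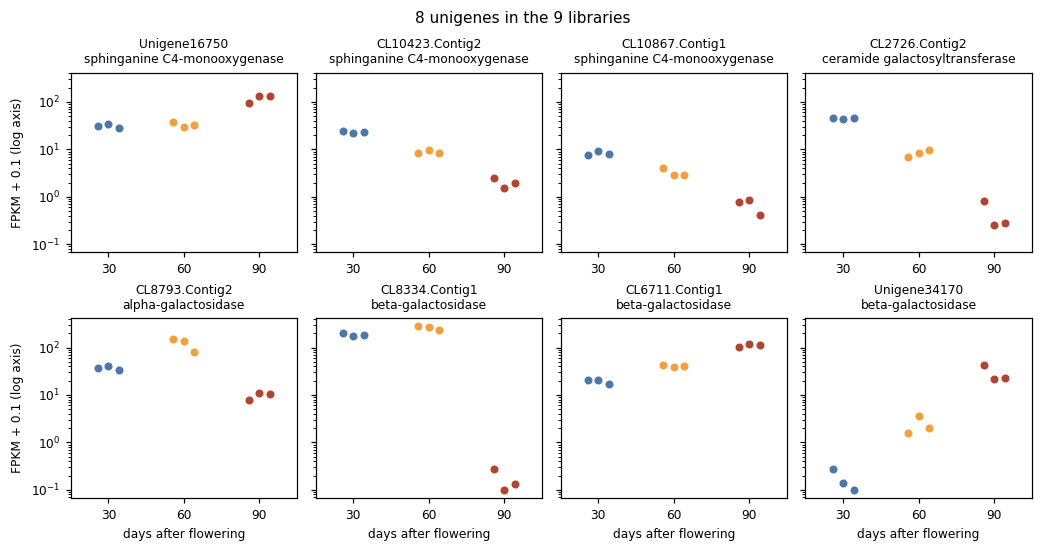
Each point is a library, with FPKM + 0.1 on a log axis against days after flowering. Unigene16750 and CL6711.Contig1 were highest at 90 DAF, CL10423.Contig2, CL10867.Contig1 and CL2726.Contig2 declined at each stage, CL8793.Contig2 peaked at 60 DAF (78.8 to 154 FPKM), CL8334.Contig1 dropped to at most 0.17 FPKM at 90 DAF, and Unigene34170 reached 42.2 FPKM there.

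The remaining beta-galactosidases were of low or middle level. Besides those named, CL3943.Contig2 had 22.6, 28.6 and 21.7 FPKM at 30 DAF, 10.4, 5.66 and 10.3 in 60 DAF seeds, and 4.41, 3.49 and 1.21 in 90 DAF seeds, falling at both steps. Its Group I call (-1.46 ± 0.40) was lost without any of the libraries at 30 or 60 DAF and without replicate 2 at 90 DAF, at -1.60 to -1.19. Its Group II call (-1.48) was lost without replicate 1 (-1.34) or replicate 3 (-1.35) at 60 DAF. Unigene33736 had a peak at 60 DAF, with 0.69 to 0.97 FPKM in 30 DAF seeds, 7.90, 7.36 and 1.87 at 60 DAF and 0 to 0.04 in 90 DAF seeds. CL9116.Contig1 and CL9116.Contig2 held 48.2% to 51.8% of their cluster each by the stage means and fell together. At 90 DAF, where the cluster summed to 1.46 FPKM, single libraries ran from 39.0% to 56.4% for Contig1 and 43.6% to 61.0% for Contig2.

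In 16 of the 25 clusters there were other contigs that the list did not hold, 52 in all, of which 40 were tested. They had no definition here, and why they are outside the list could not be worked out, so their counts are a description too. In Group I, 1 was called higher and 1 lower, beside 1.72% and 6.33% of all tested unigenes. In Group II, 8 were called higher and 1 lower at 90 DAF, beside 18.2% and 9.41%. These 9 calls became 5 under median-of-ratios scaling, where the shares of all unigenes were 7.50% and 14.1%, and 4 under quantile normalization. In Group III there were 3 higher and 4 lower, beside 13.7% and 16.5%. By their means, 27 of the 52 were highest at 90 DAF, a share that was not computed over all unigenes. Many of these 27 were low contigs of a single cluster, CL711, which has 21 contigs. The 8 called higher in Group II included CL711.Contig8, CL711.Contig9, CL711.Contig10, CL711.Contig12, CL2966.Contig2 and CL2966.Contig3, so they do not stand for 8 separate clusters.

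In most clusters the members and the cluster's sum moved in the same direction. CL3943 was the exception in Groups II and III. While its member Contig2 fell, CL3943.Contig4 had 8.70, 7.61 and 8.81 FPKM in 30 DAF seeds, 26.0, 29.9 and 18.7 at 60 DAF, and 147, 159 and 185 in 90 DAF seeds. Contig4 rose at both steps without overlap, with a Group III change of 4.21 ± 0.19. It made up 22.6% of the cluster's FPKM in 30 DAF seeds, 67.4% at 60 DAF and 97.5% in 90 DAF seeds. The cluster's sum was 37.2 ± 1.61 FPKM in 30 DAF seeds, 36.6 ± 5.90 at 60 DAF and 168 ± 19.4 in 90 DAF seeds, so that it was 4.58-fold higher at 90 DAF than at 60 DAF although the listed contig was 2.89-fold lower. In Group I the exception was CL2966, whose sum at 60 DAF (12.4 to 17.7 FPKM) overlapped that at 30 DAF (15.6 to 17.4).

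The dihydroceramidase cluster CL2966 rose as a whole in Group II. Its other contigs had 13.2 to 15.6 and 12.9 to 16.1 FPKM at 90 DAF, against 5.86 to 9.07 and 5.03 to 6.66 at 60 DAF. The member made up 6.88% of the cluster in 30 DAF seeds, 11.1% at 60 DAF and 21.4% in 90 DAF seeds. For neutral ceramidase, the 9 contigs of CL3334 summed to 75.6 ± 9.36 FPKM in 30 DAF seeds, 32.5 ± 4.28 at 60 DAF and 30.8 ± 3.78 in 90 DAF seeds, and the last 2 stages overlapped. CL3334.Contig9 made up 50.3% of that sum in 30 DAF seeds, 40.9% at 60 DAF and 21.4% in 90 DAF seeds, so the fall of this contig in Group II was not seen in its cluster. The cluster CL8771 had 20.1 to 33.5 FPKM at 90 DAF, which overlapped the 33.0 to 47.0 at 30 DAF, and its members made up 55.1% of it in 30 DAF seeds, 77.5% at 60 DAF and 25.7% in 90 DAF seeds. CL8334 and CL6711 depended little on their other contigs, as the listed contig made up at least 96.1% of the sum at every stage. In CL711, 21 contigs shared 16.2 ± 7.24 FPKM in 30 DAF seeds, 11.1 ± 3.43 at 60 DAF and 29.6 ± 1.39 in 90 DAF seeds.

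**Figure D4:**
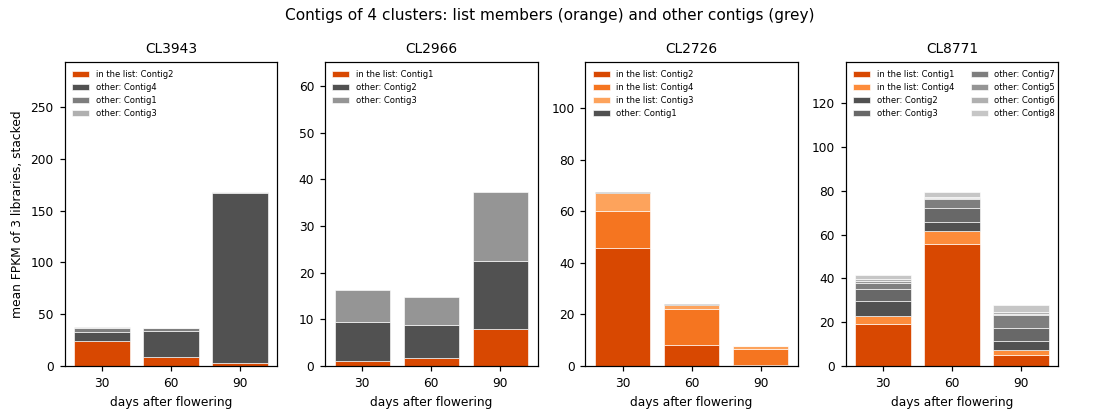
Bars stack the mean FPKM (3 libraries) of every contig in 4 clusters by days after flowering, with listed contigs in orange and other contigs in grey. CL3943 rose to 168 FPKM at 90 DAF through a grey contig while its orange one fell to 3.04. In CL2726, between 30 and 90 DAF, the listed Contig2 fell from 45.8 to 0.347 FPKM and the listed Contig4 from 14.4 to 6.08.

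Outside the list, the study's pathway table for Group I gave 24 unigenes of sphingolipid metabolism, of which 20 were members. The study counted more unigenes of this pathway in Groups II and III, which were not looked up here. The other 4 of Group I have no definition here. They were chosen by the study's call in Group I, so their changes in that group are a description only. CL13015.Contig1 had 9.05 ± 1.0 FPKM at 30 DAF, 44.5 ± 11.6 in 60 DAF seeds and 110 ± 32.2 in 90 DAF seeds, and CL13015.Contig2 was alike, with 9.94 ± 1.06, 47.2 ± 13.6 and 117 ± 31.4. Both lay without overlap between stages, and at 90 DAF they were on a level with CL6711.Contig1. Unigene43655 had 0.50 ± 0.145, 3.60 ± 0.586 and 4.23 ± 1.07 FPKM at the same stages, and CL3864.Contig1 fell to 0.163 ± 0.0289 at 60 DAF, against 4.66 ± 1.58 at 30 DAF.

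Set beside the other 438 unigenes of the lipid list, the members were more often lower in Group II by count. Of those tested, 59.7% were called lower, against 44.2% of the rest and 9.41% over all tested unigenes. Under median-of-ratios scaling 44 of the 62 tested members were called lower, beside 14.1% of all tested unigenes, and the rest was not counted. On the deposited scale the share was 43.5% for the 23 members outside the galactosidases, 66.7% for alpha-galactosidase and 69.7% for the tested beta-galactosidases. In Group III it was 74.2% for the members, 61.9% for the rest and 16.5% over all tested unigenes. Of the tested ones among the 47 sterol synthesis unigenes of the list, 61.4% were called lower in Group II and 88.6% in Group III. All 3 lists were chosen on these groups, so the differences between them were not tested. The replicates of the tested members were as close as those of the list as a whole. The median SD of log2(FPKM + 0.5) between the 3 libraries was 0.20 in 30 DAF seeds, 0.27 at 60 DAF and 0.26 in 90 DAF seeds for the members, 0.23, 0.29 and 0.30 for the rest of the list, and 0.29, 0.31 and 0.40 over all tested unigenes.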

How the data were processed

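RNA of ‘Hangshao’ seeds was sequenced in 9 libraries, 3 each at 30, 60 and 90 DAF. The authors filtered the reads with Sickle and SeqPrep, assembled unigenes without a genome using Trinity and Tgicl, mapped each library to them with Bowtie2, and deposited the FPKM values that RSEM estimated. For none of these are versions given in the sources used here. The study called differential expression with DESeq2, and its fold changes and p-values were not used here. Of the deposited lines, 9 carried no unigene and were left out. The suffix _All of the unigene names is omitted.

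From the deposited FPKM, log2(FPKM + 0.5) was computed for the 55192 unigenes that reached 0.5 FPKM in 3 or more of the 9 libraries, since FPKM are not counts. This scale understates the change of low unigenes. limma 3.58.1 (R 4.3.3) fitted a model with a term per stage over all 9 libraries with empirical Bayes moderation and a variance trend, and p-values were adjusted after Benjamini-Hochberg over all tested unigenes. The fit was tested on simulated data. Python 3.11.15, pandas 2.3.3, numpy 2.4.6 and matplotlib 3.10.9 were used for tables and plots. Stage values are means ± SD (n = 3). Relative depth came from single unigenes at 0.05 to 0.2 FPKM, where an FPKM is the worth of few reads.

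The members, gene lists and rules were chosen with earlier results of these data known. Named were members of enzymes with at most 6 unigenes and a mean of at least 1 FPKM, the 10 highest beta-galactosidases, other beta-galactosidases that were highest at 90 DAF or at 0 throughout a stage with a mean of at least 1 FPKM in another, and pairs of members within 25% of each other in every library. Further members and other contigs were named after their values were seen, to complete an enzyme, a cluster or a count. Alternatives were added values of 0.1 and 1, no filter or 1 FPKM, median-of-ratios scaling, quantile normalization, models of 2 stages, a replicate block, no trend, robust moderation, contigs summed by cluster, an adjusted p of 0.01, and each library left out.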

Additional observations from a re-analysis of the deposited data

How the results depend on the processing

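Read totals were not used, so precision at low values is known only from relative depth, and the changes of members at 0 depend on the added value. The number of members called stayed within 1.5 times under every alternative run on single unigenes. Contigs summed by cluster make a different count, in which 14, 32 and 37 of 44 tested clusters and single unigenes were called in Groups I, II and III, where 15, 32 and 41 held a called member. In Group I (17 members) leaving out 1 library gave 12 to 19, in Group II (46) 40 to 47, and in Group III (55) 53 to 55. The deviations of libraries with the same replicate number correlated by -0.16 to 0.13 over unigenes, and those with different numbers by -0.13 to 0.18. Deviations from a mean of 3 libraries are tied to one another, so these values do not settle whether the numbers pair the libraries. With the replicate block the members called numbered 14, 45 and 54 in Groups I, II and III, all of them also called without it, and the other contigs 2, 10 and 7. For the other contigs called in Group I (2), leaving out 1 library gave 2 to 4, the highest without 60 DAF replicate 1. For the other contigs called in Group II (9), the number was 3 with an added value of 1, 5 with median-of-ratios scaling, 4 with quantile normalization and 4 at an adjusted p of at most 0.01, and 3 to 12 with 1 library left out, the lowest without 60 DAF replicate 2. The cause was not tested.

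The summed FPKM of the members at 30, 60 and 90 DAF was 878, 1302 and 338 under median-of-ratios scaling and 882, 1268 and 392 under quantile normalization. With 1 of each pair within 25% of each other, it was 905, 924 and 412. Of these 3 pairs, 1 joined different enzymes (CL2726.Contig4 and CL10085.Contig1) and is a likeness of level only. This sum still held both CL8771.Contig1 and Unigene147 (18.1, 56.2 and 4.39 FPKM), a pair just outside that limit. A sum without Unigene147 was not computed, so the order of 30 and 60 DAF is not settled once near-copies are left out. Without 1 library the sum of all members was 938 to 972, 1016 to 1116 and 420 to 436 in stage order. The sum outside the galactosidases was higher at 90 DAF (183) than at 60 DAF (163) on the deposited scale but lower under median-of-ratios scaling (145 and 198) and quantile normalization (167 and 194). Of 138 changes of 46 named members, none reversed a called direction under the scalings, the added values or a left-out library. Median-of-ratios scaling ended 7 calls and made 11, and quantile normalization ended 6 and made 9.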
